A study of Mus musculus with 6 samples.

Results

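The transcriptome described here is that of cultured mouse podocytes in high glucose that received a control siRNA, measured in 3 of the 6 RNA sequencing libraries of the series. The cells were MPC5, a conditionally immortalised mouse podocyte line, grown at 33 °C with interferon gamma and held at 37 °C without it for 7 days to differentiate. They were transfected for 6 h with a scrambled siRNA, the negative control, and treated with 30 mM glucose. The series' design text calls the 3 libraries biological replicates, and they are a single group: members were taken by their labels as control, and no value chose them. The other 3 libraries, MPC5 cells with METTL3 knockdown in the same 30 mM glucose, are used only where their replicate 3 or their order of genes bears on a control value. All 6 libraries come from the same line and the same high glucose, and libraries from normal glucose are not analysed here, so none of the levels below can be read as a response to glucose. The cells grow in serum on plastic, without the glomerular basement membrane, endothelium and blood flow that podocytes have in the kidney.

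Podocytes are the epithelial cells that wrap the capillaries of the glomerulus. Their interlocking foot processes are held up by actin and joined by the slit diaphragm, a cell junction built around nephrin, and they make much of the basement membrane on which they sit. Mature podocytes keep mesenchymal traits, such as vimentin filaments. MPC5-type lines carry a temperature-sensitive T antigen that is stabilised at the lower temperature, so the cells divide at 33 °C and are meant to leave the cell cycle at 37 °C.

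Levels are FPKM as deposited, fragments scaled to transcript length and to the mapped fragments of the library. This scaling is meant to make genes of one library comparable, but unusually low values of genes of general use, described below, limit such comparisons. The table lists 9120 genes, of which 8988 are protein-coding, and each has a mean of at least 0.501 FPKM in one of the groups. The median gene had a mean of 5.45 FPKM over the 3 control libraries. A mean under 1 FPKM, called low here, was seen for 1164 genes, 4851 lay from 1 to under 10 FPKM, 2828 from 10 to under 100 FPKM, and 277 reached 100 FPKM, with S100a4 the highest. Genes in the top 10% of the table (912 genes, means of at least 38.8 FPKM) are called abundant. A gene with a mean of at least 1 FPKM is called variable where its highest library exceeded its lowest by 1.5-fold or more on FPKM + 1. This held for 1334 of 7956 such genes (16.8%), and for 106 of the 912 abundant genes (11.6%), and these shares are the background for every count below. Between replicates 1 and 2 alone it held for 324 of the 7956 (4.07%), the background for counts over that pair. A pair of libraries gives fewer variable genes than 3 libraries by construction. Means are given ± SD with n = 3 libraries. The depth behind them is unknown, and no test was made, since there is 1 group.

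The 3 libraries had FPKM sums between 173721 and 176526. FPKM is already scaled to the fragments of each library, so these sums say nothing of depth. Replicate 3 stood apart from the other libraries. Across all genes the rank correlation was 0.975 between replicates 1 and 2, against 0.961 and 0.964 between replicate 3 and those libraries. Among the 1334 variable genes, replicate 3 lay farthest from the middle value in 870 (65.2%). These measures were not computed for the METTL3-knockdown libraries. Their replicate 3 held 10.2% of its FPKM sum in its 10 highest genes, against 8.35% and 8.42% in knockdown replicates 1 and 2. The control shares are given below. The highest genes were much the same in both groups: of the 100 genes with the highest control mean, 95 were also among the 100 highest in the knockdown libraries. Where a level below depends on replicate 3, its value is given apart.

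The table has a limit that bears on every low value. Gapdh, the glycolytic enzyme often used as a loading control, was listed at 1.29, 1.1 and 1.8 FPKM in replicates 1 to 3 (rank 7433), and the respiratory chain subunit Cox4i1 at 2.63, 2.93 and 1.47 FPKM. The ribosomal protein Rps15 was listed at 0 in replicates 1 and 2 and at 7.67 FPKM in replicate 3, and the ATP synthase subunit Atp5e at 0 in replicates 1 and 2 and at 25.8 FPKM in replicate 3. Tpi1, the glycolytic triose phosphate isomerase, is not listed at all. Since every cell needs these genes, a low value, a 0 or a missing gene does not show that a gene was silent. A value of 0 was given to 183 genes in at least 1 control library and to 16 in all 3.

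The genes given as markers of these cells were all listed and all abundant, and none was variable. Actb (ENSMUSG00000029580.14, chr5:142903115-142906754, minus strand), which encodes cytoplasmic beta-actin, had 1755, 1814 and 1450.4 FPKM in replicates 1 to 3, a mean of 1673 ± 195 FPKM and rank 4 of 9120. Arf1 (ENSMUSG00000048076.14, chr11:59211412-59228270, minus strand), the small GTPase that recruits coat proteins to Golgi membranes, had 485, 486 and 505 FPKM, a mean of 492 ± 11.6 FPKM and rank 29. Timp2 (ENSMUSG00000017466.9, chr11:118301069-118355740, minus strand), a secreted inhibitor of matrix metalloproteinases, had 327, 309 and 312 FPKM, a mean of 316 ± 9.57 FPKM and rank 55. Its 3 values lay within 1.06-fold of each other on FPKM + 1. Mmp2 (ENSMUSG00000031740.8, chr8:92827291-92853420, plus strand), the gelatinase that TIMP2 both activates together with MT1-MMP and inhibits, had 138, 144 and 123 FPKM, a mean of 135 ± 11 FPKM and rank 183. Vegfa (ENSMUSG00000023951.17, chr17:46016993-46032369, minus strand), through which podocytes maintain the glomerular endothelium, had 64.1, 66.9 and 60.0 FPKM, a mean of 63.7 ± 3.44 FPKM and rank 495. Tjp1 (ENSMUSG00000030516.14, chr7:65296165-65527781, minus strand), which encodes the junction scaffold ZO-1 at the base of the slit diaphragm, had 47.5, 47.9 and 44.3 FPKM, a mean of 46.6 ± 1.96 FPKM and rank 749. Coordinates are those of the files, read as GRCm38 because 8377 of the 9120 gene spans match a GRCm38 annotation exactly. Actb, Arf1 and Timp2 are expressed by most cell types, so these 6 genes do not by themselves tell a podocyte from another adherent cell. The podocyte lists below bear on that label more directly.

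S100a4 was the most abundant gene of the table, and was first in each of the 3 libraries. The gene S100a4 (ENSMUSG00000001020.8, chr3:90603771-90606045, plus strand) encodes a small calcium-binding protein, also called fibroblast-specific protein, that is widely used as a marker of fibroblasts and of epithelial cells turning mesenchymal. It had 4030.2, 3671 and 4158 FPKM in replicates 1 to 3, a mean of 3953 ± 252 FPKM. Its lowest library lay above the highest library of the next gene, Fth1, at 2568 FPKM. For each of the other 19 neighbouring pairs among the 20 highest genes and the gene after them, the ranges of the 3 libraries overlapped. Overlap of ranges does not tell whether a pair kept its order within each library, and this was not counted.

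Fth1 and Ftl1, the heavy and light chains of ferritin, which stores iron, had means of 2352 ± 287 and 766 ± 85.9 FPKM. Col1a1, the alpha 1 chain of type I collagen, was the gene at rank 3, with 3113 FPKM in replicate 3, against 1464 and 1601 FPKM in replicates 1 and 2. Replicates 1 and 2 therefore placed it below Fth1 and Actb, and replicate 3 placed it above both. Further matrix genes among the 20 highest were Thbs1 (thrombospondin 1, mean 818 ± 160.3 FPKM), Bgn (the proteoglycan biglycan, 581 ± 6.01 FPKM) and Sparc (a collagen-binding matricellular protein, 576 ± 212 FPKM). Thbs1 had 998 FPKM in replicate 3 and a mean of 727 FPKM without it. Sparc had 821 FPKM in replicate 3 and a mean of 453 FPKM without it, which placed it at rank 32, outside the 20 highest. The 3 values of Bgn lay between 575 and 587 FPKM.

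Beside Actb, actin-related genes among the 20 highest were Tmsb4x and Tmsb10 (thymosins, which hold actin monomers), Arpc2 (a subunit of the Arp2/3 complex that branches filaments) and Flna (the crosslinker filamin A). Tmsb4x differed from library to library, with 634, 1033 and 1603 FPKM in replicates 1 to 3. Tmsb10 was steadier, at 694, 699 and 789.8 FPKM. Flna had 772 FPKM in replicate 3 and a mean of 514 FPKM without it, which placed it at rank 25, outside the 20 highest. Lgals1, the secreted lectin galectin 1, averaged 957 ± 205 FPKM, and Vim, the intermediate filament vimentin, averaged 727 ± 195 FPKM. In replicate 3 Lgals1 had 1193 FPKM and Vim 951 FPKM, against means of 839 and 614 FPKM without that library. The rest of the 20 were the elongation factor Eef1a1 (968 ± 33.5 FPKM), the RNA-binding protein Ybx1 (679 ± 25 FPKM), the endoplasmic reticulum chaperone Calr (615 ± 43.4 FPKM), Tpt1 (the growth-related protein TCTP, 607 ± 56.2 FPKM), the glycolytic kinase Pgk1 (601 ± 74.2 FPKM) and Gm42418. Gm42418 is a non-coding gene on chromosome 17 that overlaps a ribosomal RNA repeat, and the part of ribosomal RNA reads in its 1257, 902 and 1064 FPKM was not tested.

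The 10 highest genes of each library held 10.0% of its FPKM sum in replicate 3, against 8.65% and 8.47% in replicates 1 and 2. The 100 highest held 28.9% in replicate 3, against 27.7% and 27.0% in replicates 1 and 2. Abundant genes had shorter models: the longest annotated transcript had a median of 1922.5 bases for the 100 highest genes and 2676.5 bases for the top 10%, against 3544 bases for all genes of the table. The median gene span was 7831.5 bases for the 100 highest and 25767 bases for all genes, and the median number of exons was 6 and 9. Whether this belongs to the genes or to the estimation of FPKM was not tested.

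**Figure D1:**
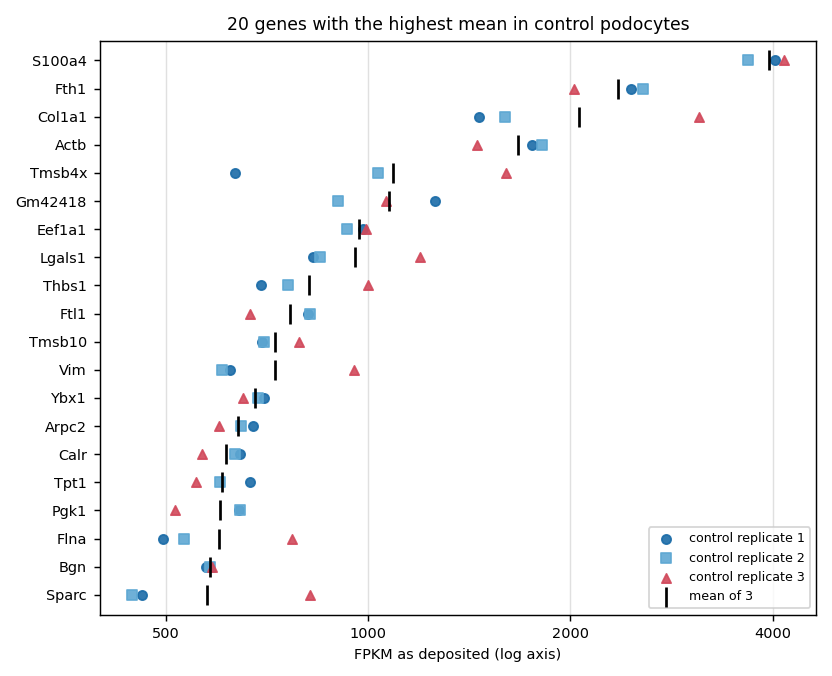
FPKM (log axis) of the 20 genes with the highest control mean, 1 row per gene, with a symbol for each of the 3 control libraries and a bar for their mean. S100a4 stands alone at the top, and Col1a1, Tmsb4x, Vim, Flna and Sparc show replicate 3 above replicates 1 and 2.

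Promoters are shown for the most abundant genes because their level is the finding, and the TATA box is the core promoter element best known from highly expressed, regulated genes. Of the 20 highest genes, 15 matched a RefSeq promoter (250 bases before the start to 50 after it, GRCm38.p6), and 4 of these held the letters TATAAA on the gene's own strand. They are printed with the motif in capitals, followed by Timp2, which holds none. The S100a4 window lies at chr3:90603520-90603819, plus strand, that of Vim at chr2:13574061-13574360, plus strand, that of Ftl1 at chr7:45459837-45460136, minus strand, that of Calr at chr8:84846882-84847181, minus strand and that of Timp2 at chr11:118355362-118355661, minus strand.
S100a4: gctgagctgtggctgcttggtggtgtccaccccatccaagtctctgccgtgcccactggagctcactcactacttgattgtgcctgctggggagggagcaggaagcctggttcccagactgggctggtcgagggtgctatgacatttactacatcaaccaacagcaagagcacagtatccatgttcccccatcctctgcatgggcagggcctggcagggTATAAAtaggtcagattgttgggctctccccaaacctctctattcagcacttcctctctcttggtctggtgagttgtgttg
Vim: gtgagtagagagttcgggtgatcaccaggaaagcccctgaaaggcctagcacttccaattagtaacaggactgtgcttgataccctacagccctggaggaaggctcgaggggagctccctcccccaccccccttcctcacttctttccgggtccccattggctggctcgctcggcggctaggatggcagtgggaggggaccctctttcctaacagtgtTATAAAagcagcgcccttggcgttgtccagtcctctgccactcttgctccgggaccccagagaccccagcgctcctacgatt
Ftl1: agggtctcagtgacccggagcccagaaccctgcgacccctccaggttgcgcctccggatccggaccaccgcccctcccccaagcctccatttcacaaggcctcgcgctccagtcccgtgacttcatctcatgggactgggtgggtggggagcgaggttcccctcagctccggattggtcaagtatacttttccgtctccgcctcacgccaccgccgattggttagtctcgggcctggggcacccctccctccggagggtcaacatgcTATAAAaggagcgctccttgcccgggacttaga
Calr: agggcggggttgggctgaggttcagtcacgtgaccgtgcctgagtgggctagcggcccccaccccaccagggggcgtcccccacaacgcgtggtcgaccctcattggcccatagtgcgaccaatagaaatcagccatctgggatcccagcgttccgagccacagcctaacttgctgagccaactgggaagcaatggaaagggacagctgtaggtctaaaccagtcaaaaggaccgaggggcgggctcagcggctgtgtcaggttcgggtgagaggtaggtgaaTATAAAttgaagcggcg
Timp2: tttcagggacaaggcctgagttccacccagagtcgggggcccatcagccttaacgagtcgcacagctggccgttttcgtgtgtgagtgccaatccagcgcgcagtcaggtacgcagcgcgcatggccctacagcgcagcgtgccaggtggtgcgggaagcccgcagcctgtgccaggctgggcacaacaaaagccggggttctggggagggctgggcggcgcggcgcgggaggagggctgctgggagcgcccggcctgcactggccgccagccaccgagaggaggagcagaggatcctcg
With the start base counted as 0, TATAAA begins at -31 in S100a4 and at -32 in Vim, the usual distance of a TATA box from a start. In Ftl1 it begins at 17 and in Calr at 33, after the RefSeq start.

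Counted on the gene's own strand, 19.7% of the 71 genes with a promoter among the 100 highest held TATAAA in at least 1 promoter. The same held for 8.13% of 689 genes of the top 10%. It held for 4.68% of 7011 genes of the table and for 9.77% of all 27025 genes with a RefSeq promoter. A gene with several promoters was counted once, and has more places for the motif. Searched on both strands, with its reverse complement TTTATA, which can overlap it, the shares were 21.1%, 10.4%, 7.73% and 15.7% in the same order. The share was thus higher for the 100 highest genes than for the table as a whole. The share of such genes was lower in the table than among all genes with a RefSeq promoter, and these are counts of letters with no test. GC content had a median of 63.7% in the promoters of the 100 highest genes and of the top 10%, against 62.0% in the table and 52.7% in all RefSeq promoters. The CArG box, by which serum response factor binds many actin genes, was found in 1 of the 71 genes among the 100 highest (1.41%). It was found in 2.61% of genes of the top 10%, against 1.57% of those of the table and 1.81% of all genes with a RefSeq promoter. Actb matched no RefSeq promoter and was not searched.

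Podocyte-specific genes were mostly low or not listed, while genes of the slit diaphragm's cytoplasmic side, shared with other cells, were well measured. Of 24 genes of the slit diaphragm and cell polarity, 14 were listed, with a median of 9.43 FPKM, against 5.45 FPKM for all genes of the table. Nphs1 (nephrin), a core protein of the slit diaphragm itself, is not listed, nor are the nephrin relatives Kirrel2 and Kirrel3, the calcium channel Trpc6, the phosphatase Ptpro and the apical sialomucin Podxl. A gene that is not listed had a mean of about 0.5 FPKM or less in both groups or was left out for unstated reasons. In a bulk sample, fewer cells of a kind and less RNA per cell cannot be told apart.

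The most abundant of the listed members were linkers and scaffolds. Ezr, the linker ezrin between membrane and actin, had 89.6, 96.7 and 95.2 FPKM in replicates 1 to 3 and was the most abundant of the list. Tjp1 followed, and then Iqgap1, a scaffold that binds nephrin and actin, at 40.7, 41 and 37.6 FPKM. Kirrel, which encodes NEPH1, the junction partner of nephrin, had 15.8 FPKM in replicate 3, against 20.6 and 22.2 FPKM in replicates 1 and 2. Cd2ap, the adaptor that ties nephrin to actin, had 13.6, 14.6 and 11.5 FPKM, and Nck1, an adaptor for phosphorylated nephrin, had 18.1, 19 and 17.9 FPKM. Magi2, a scaffold of the slit diaphragm, was lower, at 2.48, 2.9 and 2.25 FPKM. Of the 14 listed members, 1 was variable, the cadherin Cdh3, at 0.826, 1.39 and 2.31 FPKM in replicates 1 to 3. That is 7.14%, below the background share, and none was variable between replicates 1 and 2 alone.

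Of 12 podocyte transcription factors, 6 were listed, and only Klf6, a stress-induced zinc finger factor, was abundant, with 54.1, 53.8 and 57.9 FPKM. Wt1, a factor by which podocytes are identified and without which they do not form, had 0.372, 0.568 and 0.402 FPKM in replicates 1 to 3 (rank 8984), low in every library. Lmx1b, Foxc2, Tcf21, Foxd1 and Pax2 are not listed. Foxc1, a forkhead factor close to Foxc2, was at 39.2 FPKM in replicate 3, against 23.5 and 25.3 FPKM in replicates 1 and 2. Hoxb7 was at 6.17 FPKM in replicate 3, against 12.3 and 9.33 FPKM in replicates 1 and 2. Klf15, a factor linked to podocyte differentiation, was near the low limit, at 1.53, 2.63 and 1.12 FPKM. With these 3 genes the list had 3 of 5 variable members, and none between replicates 1 and 2 alone.

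Among 29 genes of the podocyte cytoskeleton and other podocyte genes, 16 were listed and 6 abundant, with a median of 16.3 FPKM. Arhgdia, an inhibitor of small GTPases whose loss causes nephrotic syndrome in people, had 215, 247 and 265 FPKM. Actn4, the actin crosslinker alpha-actinin 4 that is mutated in familial glomerulosclerosis, had 104, 113 and 109 FPKM. Dpysl2, a microtubule-binding protein, averaged 214 ± 26.8 FPKM. Synpo, the actin organiser synaptopodin and a standard sign of differentiated podocytes, was low, at 1.25, 0.45 and 0.678 FPKM, and Thsd7a, an antigen in membranous nephropathy, was at 0.342, 0.475 and 0.458 FPKM. Pla2r1, the other main antigen of that disease, is not listed, nor are Arhgap24, Nes, Pdpn, Clic5 and Cdkn1c. Dag1, the matrix receptor dystroglycan, stood out for its spread, with 11.8 FPKM in replicate 1, and 95.2 and 99.5 FPKM in replicates 2 and 3. Inf2, a formin, was at 21, 14.9 and 13 FPKM and Anln, the actin-binding anillin, at 5.25, 5.36 and 2.62 FPKM. These 3 made up the variable members among 14, of which 1 was variable between replicates 1 and 2 alone.

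**Figure D2:**
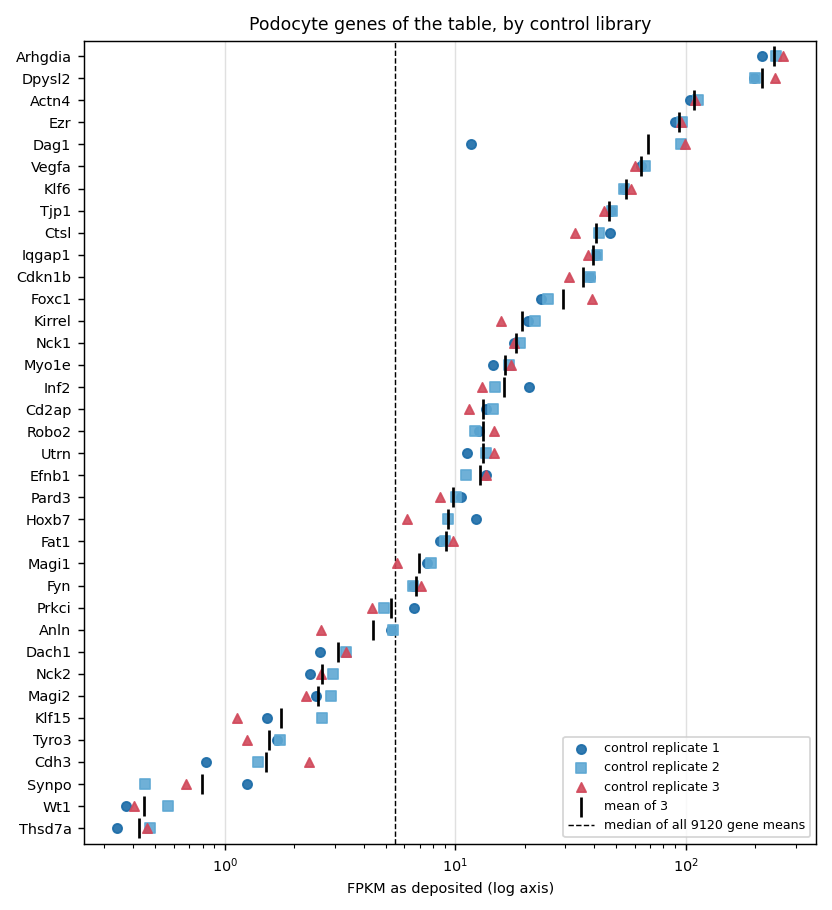
FPKM (log axis) of the listed podocyte genes of the 3 podocyte lists, 1 row per gene in order of the control mean, with a symbol for each control library and a bar for the mean; the dashed line marks the median of all gene means, 5.45 FPKM. Actin regulators and scaffolds lie to the right of the line, Synpo, Wt1 and Thsd7a at the bottom lie below 1 FPKM on average, and Dag1 has 1 library far to the left.

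Genes by which podocytes hold on to the basement membrane were better represented than its special collagen. Of 20 such genes 16 were listed, 4 were abundant, and the median was 24.9 FPKM. Itgb1, the beta 1 integrin chain of the main laminin receptor, was among the steadiest abundant genes, with 404, 400.4 and 391 FPKM (rank 39). Ilk, the kinase-like adaptor behind that integrin, had 97.9, 94.2 and 85.5 FPKM, Tln1, the activator talin, had 76.9, 83.8 and 80.5 FPKM, and Lims1, the partner of Ilk, had 39.9, 42.5 and 35.4 FPKM. The laminin chains of the mature membrane were lower, with Lama5 at 7.2, 8.15 and 7.26 FPKM. Col4a3 and Col4a4, chains of the mature collagen IV network of the glomerulus, are not listed, nor are Col4a1 and Col4a2 of the network in younger membranes. The proteoglycan agrin (Agrn) was at 2.81 FPKM in replicate 3, against 5.18 and 5.6 FPKM in replicates 1 and 2. The linker nidogen 1 (Nid1) was at 48.1 FPKM in replicate 3, against 28.5 and 30.2 FPKM in replicates 1 and 2. Of the 16 listed, 4 were variable (25%), and none between replicates 1 and 2 alone.

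Mesenchymal markers were listed more often and at higher levels than epithelial markers, over a wide range. Of 30 mesenchymal genes 24 were listed, 10 were abundant and the median was 32.4 FPKM. Beside S100a4, Lgals1, Vim and Sparc, Fn1 (fibronectin) had 525, 517 and 477 FPKM. Acta2, the smooth muscle actin of myofibroblasts, was at 56.8 FPKM in replicate 3, against 14.5 and 17.3 FPKM in replicates 1 and 2. Tagln, the actin-binding SM22 of the same cells, was at 39.1 FPKM in replicate 3, against 15.4 and 13.4 FPKM in replicates 1 and 2. Replicate 3 was the high library for both. Pdgfra was at 2.38, 2.21 and 1.27 FPKM and desmin (Des) at 0.857, 1.08 and 1.32 FPKM, the lowest of the list, and Thy1, Cnn1, Myl9, Postn, Lum and Dcn are not listed. Of the 24 listed, 6 were variable (25%), and none between replicates 1 and 2 alone.

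Of 19 epithelial genes, 2 were listed. Grhl2, a factor that maintains epithelia, had 1.11, 1.56 and 1.49 FPKM, and the keratin Krt8 had 1.29, 1.42 and 1.27 FPKM. Cdh1 (E-cadherin), Epcam, Krt18, Krt7, Krt19 and Cldn1 are not listed. The summed level of this list was between 2.40 and 2.98 FPKM per library, while that of the mesenchymal list was between 7291 and 8842 FPKM, with replicate 3 highest. The mesenchymal sum was carried by few genes: S100a4 alone made up 47.0% to 52.7% of it, and S100a4, Lgals1, Vim, Sparc and Fn1 together 83.5% to 86.0%.

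Markers of the other cells of a glomerulus were few. Of 16 endothelial genes 3 were listed, with a summed level of 11.9 to 16.5 FPKM, most of it from Eng, the TGF-beta co-receptor endoglin, at 8.57, 13 and 9.82 FPKM. Pecam1, Cdh5, Kdr and Tek are not listed. Of 16 immune genes only Csf1r was listed, at 1.1, 1.03 and 0.299 FPKM, and Ptprc and Cd68 are not. Of 21 genes of parietal epithelium and tubule only Aqp1 was listed, at 0.317, 0.536 and 1.53 FPKM, and Lrp2, Umod, Slc12a1 and Aqp2 are not. Mesangial and pericyte genes were the exception, with 8 of 16 listed and a median of 17.6 FPKM. The 8 include Acta2 and Tagln, described above as genes of myofibroblasts. Pdgfrb, the receptor that mesangial cells need to form, had 36.4, 38.5 and 30.7 FPKM, and Cald1, the contractile regulator caldesmon, had 33.8, 38.8 and 34.3 FPKM. Gata3 was at 3.01, 2.9 and 2.6 FPKM, and Itga8 and Ren1 are not listed. The summed level of this list was 174 FPKM in replicate 3, against 122 and 128 FPKM in replicates 1 and 2. The label of podocyte is thus met by cytoskeletal and adhesion genes that podocytes share with other cells, while Wt1, Synpo and Thsd7a were low and Nphs1, Podxl, Ptpro, Lmx1b, Foxc2 and Tcf21 are not listed. Other members of the podocyte lists were measured above the low limit, among them Kirrel, Foxc1, Magi2 and Klf15. Because genes of general use were also low or missing in this table, these markers neither settle that label nor give the cells another.

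Matrix genes were abundant and, as a group, unsteady. Of 39 genes of collagens and associated matrix proteins 31 were listed, 21 (67.7% of those listed) were abundant and the median was 63.9 FPKM. After Col1a1 came Lgals1, Thbs1, Bgn and Sparc, all described above. Col1a2, the partner chain of Col1a1, had 793 FPKM in replicate 3, against 354 and 356 FPKM in replicates 1 and 2. Col3a1, the type III collagen of young and reticular matrix, had 673 FPKM in replicate 3, against 267 and 254 FPKM in replicates 1 and 2. In both, replicates 1 and 2 differed little and replicate 3 was more than 2-fold higher. Col12a1, a collagen on the surface of fibrils, had 158 FPKM in replicate 3, against 46 and 46.1 FPKM in replicates 1 and 2. Ctgf, a matricellular target of TGF-beta and YAP, had 46 FPKM in replicate 3, against 19.6 and 10.8 FPKM in replicates 1 and 2, so that replicates 1 and 2 also differed. At the low end, Fbln1 (fibulin 1) averaged 17.8 ± 1.28 FPKM, Cyr61 13.6 ± 5.24 FPKM and Col18a1, a basement membrane collagen, 0.649 ± 0.137 FPKM. Eln, Dcn, Lum, Postn, Efemp1 and Mfap2 are not listed. Of the 30 members with a mean of at least 1 FPKM, 15 (50%) were variable, against 16.8% of all such genes. Between replicates 1 and 2 alone, 1 of these 30 was variable, near the 4.07% of all genes over that pair.

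Enzymes and inhibitors that build or cut matrix were steadier. Of 40, 29 were listed and 12 abundant, with a median of 16.6 FPKM. Serpinh1, the collagen chaperone HSP47, led with 621, 362 and 502 FPKM in replicates 1 to 3, and Timp2 and Mmp2 followed. Pcolce, which speeds the removal of the procollagen C-propeptide, had 96.2, 98.1 and 140.2 FPKM, and Plod2, a collagen lysyl hydroxylase, had 113, 109 and 97.2 FPKM. Lox, which crosslinks collagen, was at 74 FPKM in replicate 3, against 35.2 and 39.4 FPKM in replicates 1 and 2. Adamts1, a protease that cuts proteoglycans, was at 31.5 FPKM in replicate 3, against 9.65 and 8.34 FPKM in replicates 1 and 2. Mmp19 was listed at 0 in replicates 1 and 3 and at 2.48 FPKM in replicate 2, and Mmp13 at 0 in replicate 3 and at 1.44 and 0.863 FPKM in replicates 1 and 2. Timp3, Timp4, Mmp3, Mmp9, Mmp10 and Mmp15 are not listed. The lysosomal protease Ctsd had 0.101 FPKM in replicate 3, against 1.76 and 2.07 FPKM in replicates 1 and 2, and is another gene of general use with an unusually low value. Of 26 members, 4 were variable (15.4%), and 1 between replicates 1 and 2 alone.

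Genes of the actin cytoskeleton, which shapes the foot processes, were abundant as a group. Of 62 genes 60 were listed and 42 (70.0%) abundant, with a median of 76.1 FPKM. Below the 5 members among the 20 highest genes, the list held the monomer binder Pfn1, with a mean of 453 ± 14.5 FPKM, and the severing protein Cfl1, with 392 ± 30.5 FPKM, both chosen here after their values were seen. Tpm2, a tropomyosin that lies along filaments, was the steadiest gene of all those with a mean of at least 100 FPKM, with 259.7, 259.6 and 263 FPKM and an SD of 0.637% of its mean. At the low end stood the regulatory light chain Myl12a, at 0.934, 1.43 and 1.05 FPKM, the focal adhesion adaptor Pxn, at 2.05, 3.13 and 2.1 FPKM, and the LIM protein Csrp1, at 8.11, 8.9 and 4.36 FPKM. Myl9 and Cnn1, smooth muscle genes, are not listed. Of the 60, 7 were variable (11.7%), near the 11.6% of all abundant genes, and they include Acta2, Tagln, Tmsb4x and Flna, each highest in replicate 3. Between replicates 1 and 2 alone 1 of the 60 was variable. The median SD was 7.77% of the mean, against 13.3% for all tested genes and 8.97% for the abundant ones.

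Of 28 genes of microtubules and intermediate filaments 25 were listed and 15 abundant, with a median of 63.6 FPKM. After Vim came the alpha-tubulins Tuba1c, Tuba1b and Tuba1a, with means of 333 ± 28.3, 330.1 ± 38.5 and 265 ± 11.1 FPKM, and the beta-tubulin Tubb4b, with 211 ± 31.9 FPKM. The alpha-tubulins named have near-identical sequences, and the assignment of reads they share is not stated. Tuba4a had 23.5 FPKM in replicate 1, and 6.94 and 5.51 FPKM in replicates 2 and 3. Tubb3 had 8.33 FPKM in replicate 3, against 2.75 and 2.46 FPKM in replicates 1 and 2. Lmnb1, the lamin B1 of the inner nuclear membrane, had 5.04 FPKM in replicate 3, against 11.6 and 12.3 FPKM in replicates 1 and 2. Nes, Krt18 and Lmnb2 are not listed. Of the 25, 5 were variable (20%), and 1 between replicates 1 and 2 alone.

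The secretory pathway was listed almost whole and was steady. Of 51 genes for coats, cargo receptors and small GTPases 50 were listed and 22 abundant, with a median of 28.6 FPKM. Arf1 led, and Arf6, its relative at the plasma membrane, had 254, 264 and 211 FPKM. Rab2a and Rab1a, GTPases of traffic between endoplasmic reticulum and Golgi, averaged 177 ± 11.7 and 127 ± 3.12 FPKM. Tmed2, a cargo receptor of the p24 family, had 136, 136 and 138 FPKM, an SD of 0.692% of its mean. The lowest were Sec24b, a cargo-selecting COPII subunit (2.27 ± 0.0688 FPKM), Golga7 (3.03 ± 0.498 FPKM) and Arf2 (3.98 ± 0.175 FPKM), and Mcfd2 is not listed. Only Rab5c, an early endosome GTPase, with 144, 86.1 and 140.4 FPKM in replicates 1 to 3, and Copz2, a COPI subunit, with 12.8, 18.7 and 22.9 FPKM, were variable. That is 2 of 50 (4.0%), against 16.8% of all genes and 11.6% of the abundant ones, and 1 was variable between replicates 1 and 2 alone.

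Of 41 genes for translocation and folding in the endoplasmic reticulum, 38 were listed and 24 (63.2%) abundant, with a median of 44.9 FPKM. The lectin chaperones Calr and Canx averaged 615 ± 43.4 and 384 ± 34.8 FPKM, the disulfide isomerases Pdia3 and P4hb 519.8 ± 59.6 and 245 ± 15.9 FPKM. Hspa5 (BiP), the main stress-inducible chaperone, had 72.3, 70.8 and 70.8 FPKM, an example chosen after its values were seen. Spcs1, a signal peptidase subunit, was listed at 4.79 FPKM in replicate 1 and at 0 in replicates 2 and 3. Its partner Spcs2 had 21.2, 9.13 and 19.6 FPKM in replicates 1 to 3, with replicate 2 the low library. The lowest of the others were Creld2, at 1.93 ± 0.476 FPKM, and the oxidase Ero1l, at 5.81 ± 1.38 FPKM. Sec61b, Sec61g and Ssr1, parts of the translocation channel, are not listed. Of 38 members, 6 were variable (15.8%), and 4 of these 38 were variable between replicates 1 and 2 alone, against 4.07% of all genes over that pair.

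Secreted factors were a mixed group. Of 66 genes 39 were listed and 13 abundant, with a median of 22.5 FPKM. Spp1, the adhesive phosphoprotein osteopontin, was the most abundant, with 361 FPKM in replicate 3, against 735 and 599 FPKM in replicates 1 and 2. Htra1, a serine protease that binds TGF-beta, averaged 352 ± 37.1 FPKM, the cytokine Mif 199.9 ± 26 FPKM and the follistatin-related Fstl1 95 ± 5.72 FPKM. Grem1, a BMP antagonist, had 155 FPKM in replicate 3, against 99.3 and 98.7 FPKM in replicates 1 and 2. Igfbp5, an IGF-binding protein of the matrix, had the largest ratio of the list, with 48.8 FPKM in replicate 3, against 9.86 and 10.4 FPKM in replicates 1 and 2. Hgf, the hepatocyte growth factor, went the other way, with 6.88 FPKM in replicate 3, against 23.9 and 23 FPKM in replicates 1 and 2. The chemokines Ccl2, Ccl7, Cxcl1 and Cxcl5, the cytokine Il6 and the growth factor Igf1 are not listed. Grn (progranulin) was at 0.412, 0.299 and 0.217 FPKM and Nov at 0.364, 0.497 and 0.212 FPKM, and Wisp2 was listed at 0 in replicate 1 and at 1.18 and 0.844 FPKM in replicates 2 and 3. Of 34 members, 13 were variable (38.2%), and 2 between replicates 1 and 2 alone.

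**Figure D3:**
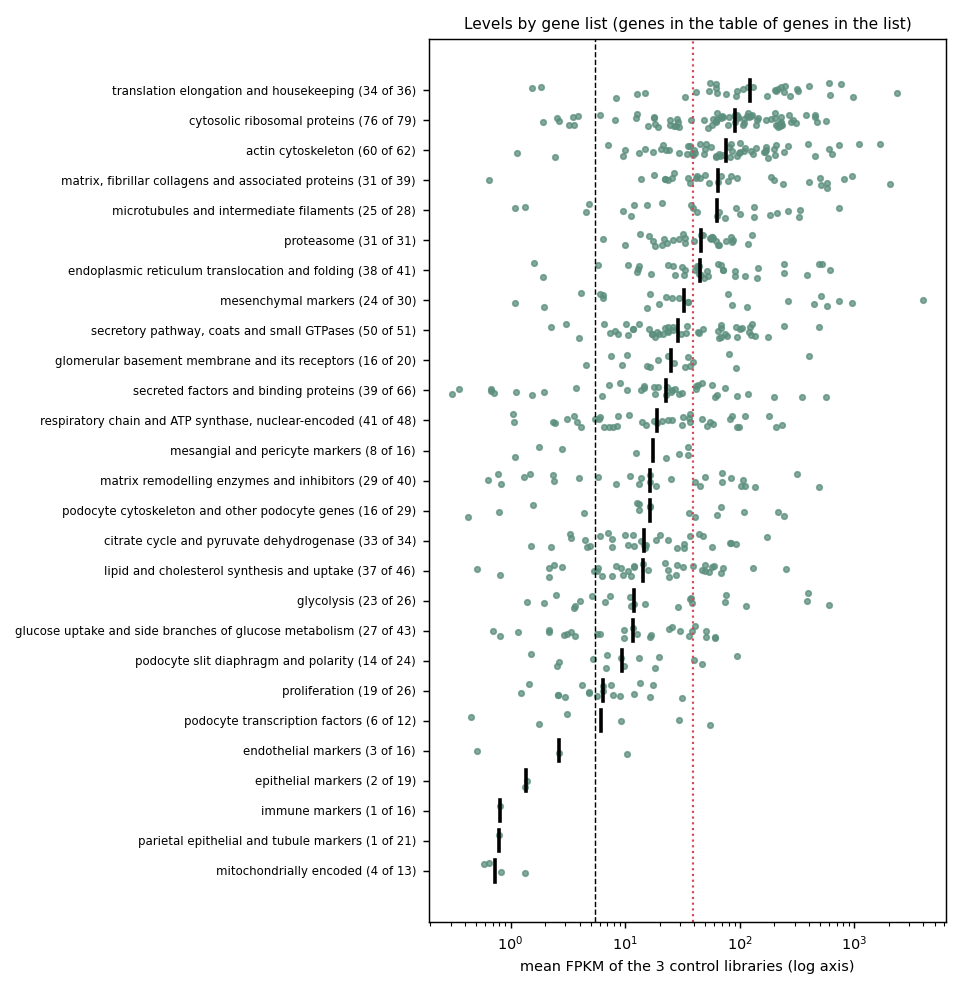
Mean FPKM over the 3 control libraries (log axis) of the listed members of 27 gene lists, 1 point per gene and 1 row per list in order of the median (thick bar), with the number listed of the number in the list. The dashed line is the median of all 9120 genes, 5.45 FPKM, and the dotted line the lower bound of the top 10%, 38.8 FPKM; actin, matrix and ribosomal lists lie to the right and epithelial, immune, tubule and mitochondrially encoded lists to the left.

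Slc2a1 (GLUT1) was the only glucose transporter of the list that the table holds. It had 54.7, 52 and 43.9 FPKM in replicates 1 to 3, and Slc2a2, Slc2a3, Slc2a4, Slc2a8, Slc2a10 and Slc2a12 are not listed. Of 43 genes of glucose uptake and of the side branches of glucose metabolism 27 were listed and 5 abundant, with a median of 11.8 FPKM. Enzymes of the pentose phosphate pathway were at both ends of the list. The highest were G6pdx, the first enzyme, at 59.7, 62.1 and 59.3 FPKM, and Taldo1 at 60.9, 60.2 and 59.5 FPKM, and Tkt was at 44.5, 43.1 and 34.8 FPKM, while Pgls, which follows G6pdx in the pathway, was at 0.754, 1.32 and 1.39 FPKM in replicates 1 to 3. Ogt, which attaches N-acetylglucosamine to proteins as the last step of the hexosamine pathway, was at 35.6 FPKM in replicate 3, against 57.5 and 59.3 FPKM in replicates 1 and 2. Gys1, glycogen synthase, was at 19.8 FPKM in replicate 3, against 34.9 and 35.5 FPKM in replicates 1 and 2. Akr1b3, the aldose reductase that opens the polyol pathway, was low at 0.833, 0.998 and 0.603 FPKM, and the fructose kinase Khk was at 0.541, 0.766 and 0.8 FPKM. Of 25 members, 6 were variable (24%), and 1 between replicates 1 and 2 alone.

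Glycolysis ran over a wide range of levels within a single pathway. Of 26 genes 23 were listed and 6 abundant, with a median of 12 FPKM. Pgk1 averaged 601 ± 74.2 FPKM, the aldolase Aldoa 392 ± 52.9 FPKM, the pyruvate kinase Pkm 382 ± 27.5 FPKM, the mutase Pgam1 113 ± 5.63 FPKM and the lactate dehydrogenase Ldha 75.2 ± 6.21 FPKM. Gapdh, which acts between Aldoa and Pgk1, was the lowest of the list, as given above, and Tpi1 is not listed. Gapdh and Tpi1 have many processed pseudogenes, and the assignment of shared reads is not stated. Pfkfb3, which makes the activator of phosphofructokinase, was at 1.99, 2.2 and 1.62 FPKM, and the monocarboxylate carrier Slc16a1 at 2.48, 3.09 and 1.89 FPKM. Hk2, an inducible hexokinase, had 8.14 FPKM in replicate 3, against 12.4 and 15.3 FPKM in replicates 1 and 2. Aldoc had 15.9 FPKM in replicate 3, against 7.91 and 9.51 FPKM in replicates 1 and 2. With Ldhb these were the variable members, 3 of 23 (13.0%), and 1 was variable between replicates 1 and 2 alone.

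The citrate cycle was listed almost whole. Of 34 genes 33 were listed and 7 abundant, with a median of 14.6 FPKM. Acly, which turns citrate into cytosolic acetyl-CoA for lipid synthesis, was the highest, with 229 FPKM in replicate 3, against 145 and 139 FPKM in replicates 1 and 2. The mitochondrial enzymes Idh2, Glud1 and Ogdh averaged 83.3 ± 8.17, 82.5 ± 5.35 and 56.6 ± 2.12 FPKM. Got2, the mitochondrial aspartate aminotransferase, had 21 FPKM in replicate 3, against 36.4 and 39.8 FPKM in replicates 1 and 2. Sdhd, a membrane anchor of succinate dehydrogenase, was listed at 0 in replicate 1 and at 4.34 and 2.36 FPKM in replicates 2 and 3, and its partner Sdhc is not listed. Of 33 members, 4 were variable (12.1%), and 1 between replicates 1 and 2 alone.

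Nuclear-encoded genes of the respiratory chain and ATP synthase were listed for 41 of 48, 12 of them abundant, with a median of 19.0 FPKM. The adenine nucleotide carriers Slc25a4 and Slc25a5 averaged 235 ± 17.6 and 179 ± 12.3 FPKM, the oxidase subunit Cox8a 207 ± 11.1 FPKM, and the ATP synthase subunits Atp5k and Atp5b 111 ± 11.3 and 97.7 ± 4.72 FPKM. Other subunits of the chain were far lower: Cox7b, of the same oxidase as Cox8a, was at 1.31, 1.1 and 0.761 FPKM and Ndufb8 at 0.998, 1.32 and 0.887 FPKM. Ndufa1, like Atp5e, was listed at 0 in replicates 1 and 2 and at 23.5 FPKM in replicate 3. Atp5j was at 0.477 FPKM in replicate 1, 0 in replicate 2 and 8.87 FPKM in replicate 3. Of 41 members, 7 were variable (17.1%), near the background, and 1 between replicates 1 and 2 alone. Of the 13 proteins encoded by mitochondrial DNA 4 were listed, with means from 0.586 FPKM (mt-Co1) to 1.35 FPKM (mt-Co3), although such transcripts are among the most abundant of most cells.

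Genes of lipid and cholesterol synthesis and uptake were listed for 37 of 46, 11 of them abundant, with a median of 14.4 FPKM. Fads2, a fatty acid desaturase, led with 337 FPKM in replicate 3, against 206 and 221 FPKM in replicates 1 and 2. The endocytic receptor Lrp1 was steady, at 127, 136 and 129.6 FPKM, and so was Fdps, which makes farnesyl diphosphate, at 70.4, 67.6 and 67.7 FPKM. Scd1 and Scd2, which desaturate stearate, averaged 59.1 ± 16.9 and 71.5 ± 6.51 FPKM. Cpt1a, which admits fatty acids to mitochondria, had 1.93 FPKM in replicate 3, against 8.28 and 8.7 FPKM in replicates 1 and 2. Sqle, squalene epoxidase, was at 0.0384 FPKM in replicate 2, and 14.3 and 19.1 FPKM in replicates 1 and 3. Plin2, the coat protein of lipid droplets, was listed at 0 in replicates 1 and 2 and at 6.48 FPKM in replicate 3. Cd36, Acacb, Mvk, Cpt1b and Acadm are not listed. Of 35 members, 11 were variable (31.4%), and 2 between replicates 1 and 2 alone.

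Genes of translation and general upkeep had the highest levels of any list, as they do in most cells. Of 36 genes 34 were listed and 28 (82.4%) abundant, with a median of 123 FPKM, and 3 of 34 were variable (8.82%). Tbp, the TATA-binding protein, and Calm2, a calmodulin gene, were low at 1.45, 1.61 and 1.59 and 1.19, 2.61 and 1.76 FPKM, and Gusb and S100a11 are not listed. Cytosolic ribosomal proteins, a list added after the levels were seen, were listed for 76 of 79, with a median of 90.1 FPKM. Although these proteins are made in equal numbers, their means spanned from 1.92 FPKM (Rps25) to 559 FPKM (Rpl17). Rps6, a kinase target of growth signalling, had 344, 93.8 and 252 FPKM in replicates 1 to 3, with replicate 2 the low library. The proteasome, added in the same way, was listed for 31 of 31 and spanned from 6.43 FPKM (Psmb3) to 129 FPKM (Psma6), and 1 of its 31 genes was variable, Psmd3. Ribosomal proteins also have many processed pseudogenes, and the part of read assignment in their spread was not tested.

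Genes of the cell cycle were listed at moderate levels after 7 days at 37 °C. Of 26 proliferation genes 19 were listed and none was abundant, with a median of 6.45 FPKM. Ccnd1, the cyclin of early G1, was the highest, with 30.9, 38 and 24.8 FPKM in replicates 1 to 3. Rrm2, which makes deoxynucleotides, had 8.92 FPKM in replicate 3, against 21.6 and 22.3 FPKM in replicates 1 and 2. Top2a, the topoisomerase of dividing cells, had 8.56 FPKM in replicate 3, against 20.3 and 20.4 FPKM in replicates 1 and 2. Mki67, the gene of the Ki-67 antigen, had 0.584 FPKM in replicate 3, against 1.59 and 1.53 FPKM in replicates 1 and 2. Ccnb1, Aurka, Aurkb, Birc5, Cdkn1a and Cdkn2a are not listed. Of the 19, 16 were variable (84.2%), the largest share of any list with 10 or more genes, and none was variable between replicates 1 and 2 alone, where 4.07% of all genes were.

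Stability followed the level of a gene by the median SD, and only in part by the share of variable genes. The median SD was 13.3% of the mean over 7956 genes, with quartiles of 7.71% and 22.0%. The median SD was 15.8% of the mean among genes with means of 1 to under 10 FPKM. It was 10.2% from 10 to under 100 FPKM and 9.08% from 100 FPKM. The share of variable genes in these ranges was 19.4%, 12.5% and 14.4%, in the same order. This share is called on FPKM + 1, and the pseudocount lowers ratios most for genes with low values. Of the 277 genes at 100 FPKM or more, 69 had an SD under 5% of the mean and 40 were variable. The 10 steadiest of these were Tpm2, Tmed2, the ribosomal proteins Rpl37 and Rpl8, the growth regulator Btg1, Bgn, the initiation factor subunit Eif3c, the proteasome subunit Psma5, Itgb1 and the ubiquitin ligase Nedd4. Their SDs ran from 0.637% to 1.84% of the mean.

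The least steady of the 277 fell into different patterns. Col3a1, Col1a2, Col1a1 and Tmsb4x were highest in replicate 3, and so was Atf4, the transcription factor of the integrated stress response, with 241 FPKM in replicate 3, against 129 and 135 FPKM in replicates 1 and 2. H3f3b, which encodes the histone variant H3.3, had 27.1 FPKM in replicate 1, and 168 and 148 FPKM in replicates 2 and 3, and was the least steady of all, with an SD of 66.7% of its mean. Rps6 was low in replicate 2. The histone genes Hist1h4n and Hist1h4m, near-identical copies, were both highest in replicate 2, at 176 and 209.6 FPKM.

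**Figure D4:**
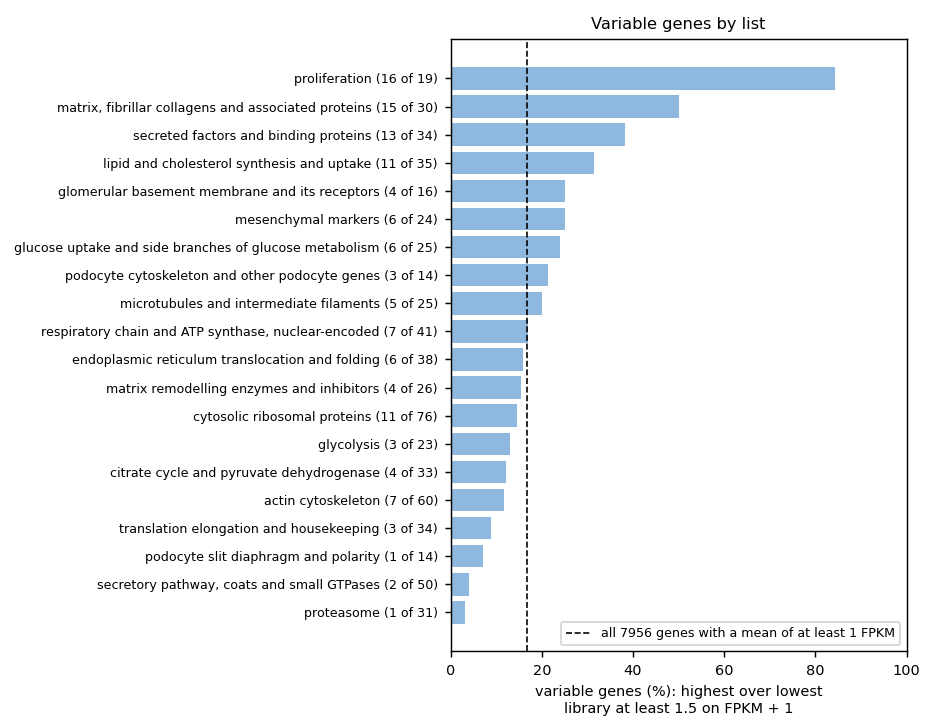
Share of variable genes in each list with 10 or more genes at a mean of at least 1 FPKM, in percent, with the number variable of the number tested beside each name; the dashed line marks the share over all 7956 such genes, 16.8%. The proliferation list (84.2%) and the matrix list (50%) lie far right of the line, and the secretory (4.0%) and proteasome (3.23%) lists far left.

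Replicate 3 carried much of the spread in the matrix and proliferation lists, in opposite directions. Against the mean of replicates 1 and 2, replicate 3 was 1.5-fold or more higher on FPKM + 1 for 12 of 30 matrix genes and lower for none, with a median log2 ratio of 0.55. Over all 7956 genes, 271 (3.41%) were higher and 501 (6.3%) lower by that measure, with a median log2 ratio of -0.07. Of the 19 proliferation genes none was higher and 15 were lower, with a median log2 ratio of -0.82. In the secretory list none of 50 was higher or lower, with a median log2 ratio of 0.11, and in the actin list 4 of 60 were higher and 1 lower. In the lipid list 8 of 35 were higher and 1 lower, with a median log2 ratio of 0.24. Scaling the libraries by their median ratio gave 364 higher and 410 lower genes, a different balance from the 271 and 501 as deposited. Of 8 mesangial and pericyte markers Acta2 and Tagln were higher in replicate 3 and Serpine2 was lower, and the median log2 ratio of the 8 was 0.02. Their part in the result, and that of the proliferation genes, was not tested.

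The 5 genes with the highest ratio in replicate 3, at means of at least 10 FPKM, were Igfbp5 (log2 ratio 2.16), Aspn (1.94), Acta2 (1.77), Col12a1 (1.76) and Adamts1 (1.70). Aspn, the small matrix proteoglycan asporin, had 53 FPKM in replicate 3, against 12.9 and 13.3 FPKM in replicates 1 and 2. Replicate 3 of the METTL3-knockdown libraries had similar values, with Igfbp5 at 49.1 FPKM, against 8.71 and 8.79 FPKM in knockdown replicates 1 and 2, and Acta2 at 58.8 FPKM, against 15.3 and 16.7 FPKM. The 5 with the lowest ratio were Gm45713 (-5.13), the complement protease C1ra (-3.12), Socs3 (-2.11), the histone gene Hist2h2ab (-1.77) and Hgf (-1.63). Socs3, an inhibitor of cytokine signalling, had 3.49 FPKM in replicate 3, against 19.5 and 17.3 FPKM in replicates 1 and 2. C1ra had 1.52 FPKM in replicate 3, against 21.6 and 20.3 FPKM in replicates 1 and 2. Gm45713 belongs to another pattern, since replicate 2 was as low as replicate 3: it had 0.381 FPKM in replicate 3, against 94.5 and 0.266 FPKM in replicates 1 and 2. The titles give replicate 3 a code of another form in both groups, and its meaning is not stated, so culture, date and library cannot be told apart.

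**Figure D5:**
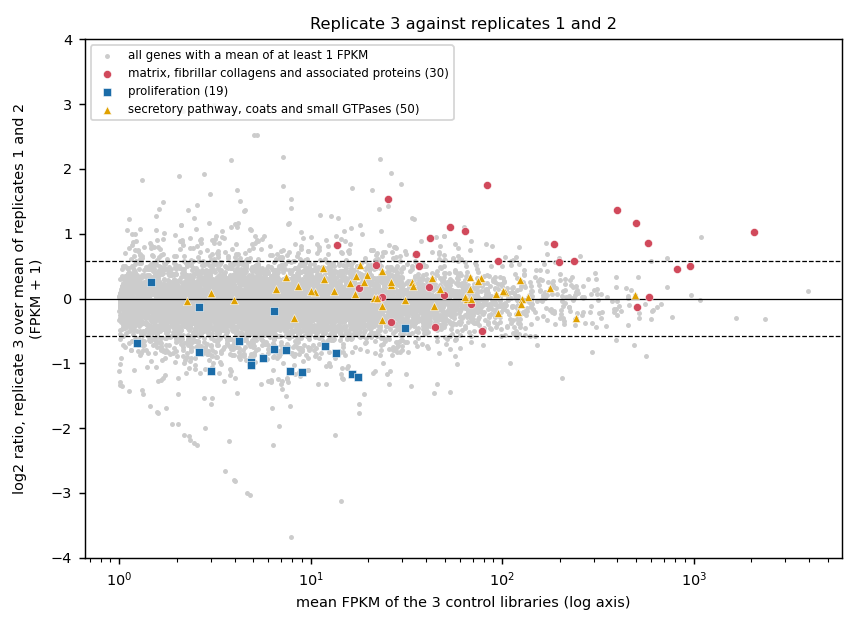
Log2 ratio of replicate 3 over the mean of replicates 1 and 2 (on FPKM + 1) against the mean FPKM of the 3 control libraries (log axis), for genes with a mean of at least 1 FPKM (grey), with matrix (circles), proliferation (squares) and secretory (triangles) genes marked and dashed lines at 1.5-fold. Matrix genes lie mostly above 0, proliferation genes mostly below, and secretory genes between the dashed lines; 4 genes fall outside the plotted range.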

How the data were processed

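RNA sequencing libraries of MPC5 cells were compared within a single group, 3 control libraries of 6, grouped by their titles. Gene-level FPKM, as the authors deposited them, are the only values used. Build mm9 and the tools FastQC 0.11.7, HISAT2 2.0.4, cutadapt 1.17, R 2.10.0 and StringTie 1.2.2 are named in the submitters' processing notes, without their roles. Of the 9120 gene identifiers, 9110 were found in GENCODE M21 and 8377 had its exact span on GRCm38, so coordinates are given as GRCm38. Counts and depth are not given with the FPKM. Whether FPKM are whole numbers of reads was examined in the 150 lowest products of FPKM and transcript length, of genes with a single transcript, in each library, of which at most 18.7% came within 0.05 of a whole read, so reads were not recovered.

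Values were used without scaling. Means, SDs, ranks and ratios (on FPKM plus a pseudocount of 1) were computed in Python 3.11.15 with pandas 2.3.3 and numpy 2.4.6. The call of variable genes and the log2 ratio of replicate 3 were tested on simulated data. The simulated noise was smaller than the median spread of these libraries, and the simulated shifts were larger than the cutoff of 1.5-fold. The simulation therefore checks the computation and does not measure how well the call works on these libraries. No test was made, since there is 1 group. Lists were described by counts and medians beside those of all genes. The members and lists were chosen with earlier results of these data known, and the ribosomal and proteasome lists after the levels were seen. Of 867 different genes in 27 lists, 656 were in the table.

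Genes were named by a rule: the 20 highest means, the 6 given markers and the cell type markers, and per list up to 5 members with the highest means, 3 with the lowest, 3 with the largest ratios and 6 not listed. To these it adds the 10 steadiest and 10 least steady genes of at least 100 FPKM, and the 5 genes with the largest ratio of replicate 3 in each direction at means of at least 10 FPKM. Some genes that the rule names are not reported here. Promoters are those of RefSeq on GRCm38.p6, matched by symbol, with the last 40 bases of 2979 of 3559 promoters on the plus strand and 2905 of 3452 on the minus strand found in the gene's own transcripts as written. Left-out replicates, other pseudocounts, filters and scalings were tried as alternatives.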

Additional observations from a re-analysis of the deposited data

How the results depend on the processing

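The count of 1334 variable genes depends on replicate 3 and on the settings. Leaving out a replicate gave 329 to 939 variable genes, 329 of them without replicate 3 and 841 without replicate 1. A pseudocount of 0.1 FPKM gave 2053, a ratio of 2 gave 349, a mean of at least 10 FPKM gave 394 and the top 10% alone, chosen after seeing the data, gave 106. The last 3 settings are stricter or test fewer genes by construction. The median SD was 13.3% of the mean, and 7.08% to 12.9% with a replicate left out, the lowest without replicate 3. With a pseudocount of 0.1 FPKM, 418 genes were higher in replicate 3 (271 as reported) and 789 lower (501 as reported). Scaling by the median ratio gave 364 higher and 410 lower. Of 667 recomputed values, 569 stayed close to the reported value and 98 moved. The 569 include every recomputed mean level of the most abundant genes. Leaving out a library, or taking the median, cannot move a mean of 3 libraries by as much as its SD. Counts of abundant genes that were 0 and stayed 0 are also among the 569. The 569 are therefore no measure of robustness. The median log2 ratio of replicate 3 took the other sign in 9 of 88 recomputations, 4 of them with scaling by the median ratio and 5 against replicate 1 or 2 alone. They concern 8 of 22 lists, whose reported medians were at most 0.12 in size; the matrix, lipid, secretory and proliferation lists are not among them. All 81 list counts of abundant genes with a replicate left out stayed within 1.5 times of those reported, among them counts of 0 that stayed 0. Counts of variable members did not: of 23 lists with any, 21 changed by more than 1.5 times without replicate 3, 7 without replicate 1 and 5 without replicate 2. Without replicate 3 the matrix list had 1 variable member, the proliferation, mesenchymal and basement membrane lists 0, the secreted and lipid lists 2 each and the respiratory list 1. Membership of the top 10% changed little: it kept 886 to 892 of its 912 genes with a replicate left out. The means compared share libraries, which favours such a result. Order within the top 10% moved for some genes, with Sparc going from rank 20 to 32 and Flna from 18 to 25 without replicate 3. No paired analysis was possible because the results describe 1 group and come from no test. The unknown depth limits every value, and a list's low or missing members cannot be read as silent genes. The cause of each shift beyond the stricter settings was not tested.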

Other observations

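Hox genes, which record the position of a cell along the body axis, were listed for 27 genes, a group chosen after the values were seen. The C cluster stood highest. Hoxc8 had 67.2, 68.7 and 73.3 FPKM in replicates 1 to 3 and Hoxc6 67, 75.5 and 59.2 FPKM, and these were the 2 abundant Hox genes. Hoxc9, Hoxc10, Hoxc5 and Hoxc4 followed, with means of 35.6 ± 7.56, 30.4 ± 6.62, 28.6 ± 4.88 and 27.5 ± 5.13 FPKM, so that 6 genes of the C cluster were listed, all above 25 FPKM. In the B cluster 7 genes were listed, led by Hoxb6 at 31.6 ± 4.29 FPKM. The A and D clusters were lower, with 9 and 5 genes listed and highest means of 9.57 ± 0.369 FPKM (Hoxa5) and 6.49 ± 3.57 FPKM (Hoxd8). Of the 23 Hox genes with a mean of at least 1 FPKM, 7 were variable, against 16.8% of all such genes.

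Of 3105 genes with a mean of at least 10 FPKM, 25 had a highest library at least 3-fold above the lowest on FPKM + 1. Of the 25, 7 (28%) overlap another gene of the table, against 461 of all 3105 (14.8%), a description of few genes with no test. Both counts take in either strand. For Mid1ip1, Aspn, Ogn and Tuba4a the overlapping gene lies on the opposite strand. Gm45713 and Rpl13a, which overlap each other, are both counted. Gm45713 and Rpl13a overlap on the same strand of chromosome 7 and traded places. Gm45713 had 94.5 FPKM in replicate 1, and 0.266 and 0.381 FPKM in replicates 2 and 3, while Rpl13a, a ribosomal protein gene, had 10.1 FPKM in replicate 1, and 36.7 and 37 FPKM in replicates 2 and 3. Zbed6, which lies within Zc3h11a on the same strand, had 61.1, 0.957 and 13.3 FPKM in replicates 1 to 3, and Zc3h11a 12.2, 9.31 and 12 FPKM. Ywhag, Chst12 and Dag1 overlap no other gene of the table and still had a library far from the others. Ywhag had 92.4 FPKM in replicate 1, and 19.7 and 19.8 FPKM in replicates 2 and 3, and Chst12 had 0.0327 FPKM in replicate 2, and 34.1 and 36.1 FPKM in replicates 1 and 3. These genes were chosen after their values were seen, and the part of read assignment in them was not tested.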
